A study of Mus musculus with 18 samples.

Results

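The cadherin and nonclustered protocadherin genes were examined for summits of NFIA and NFIB, a pair of nuclear factor I transcription factors, at successive stages of medulloblastoma, the cerebellar tumor, in mice. Members were the autosomal protein-coding RefSeq genes whose symbols are Cdh or Pcdh followed directly by a digit, 33 of 20665 gene spans. The clustered families (Pcdha, Pcdhb, Pcdhg) do not meet this rule, and 2 X-linked symbols were left out. The libraries were made by CUT&Tag, in which an antibody tethers a transposase to chromatin around the protein of interest. The groups were granule neuron progenitors (GNPs) from cerebella at postnatal day 7, hyperplasia from cerebella at postnatal day 28 and tumor cells from adult cerebella, each purified on a Percoll gradient. Each stage had 3 preparations, each with an NFIA and an NFIB library of 100000 cells, 18 libraries in all. The tumors come from a genetically engineered mouse model, per the submitters' design text. Genotypes, strain, the engineered alleles, the driver and the cells it acts in, the exact age of the adult mice and the pooling of animals are not given in the sources used here. A cell line that the design text mentions is not analysed here.

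The deposited lists held 49948 to 385466 summits per library. A summit is the base where a called peak is highest, with a score that is the −log10 of the p- or q-value of the authors' peak caller. The 30000 autosomal summits with the highest scores in each library (top summits) were each given to the nearest gene span within 100 kb. The 2 libraries of a preparation were added, and a gene's value is this number of top summits. Nearness does not show that a gene is regulated by a summit. Of the 33 members, 24 (72.7%) had a mean of at least 2 top summits over the 9 preparations and were tested, against 41.5% of all gene spans. Cdh3 and Cdh15 stood exactly at that limit, and Cdh10 and Cdh24 were the nearest below it, with a mean of 1.33. Tumor libraries had 6.83 to 7.43% of their top summits on chromosome 6, against 5.04 to 5.54% in the other libraries, and no member lies there. The marker genes of granule progenitors had 98 to 113 top summits in GNP preparations, 78 to 95 in hyperplasia and 100 to 105 in tumors, summed over 10 genes. The 7 granule neuron markers had 75 to 78 in GNP preparations, 58 to 66 in hyperplasia and 62 to 68 in tumors, so that both later stages lay wholly below GNPs. Of the 5 of them tested, 2 had an unadjusted p under 0.05 against GNPs at each later stage, and 0 were called (limma). The granule progenitor markers also lay wholly below GNPs in hyperplasia, where 3 of the 9 tested had an unadjusted p under 0.05, all lower. In tumors 2 of them were higher than in GNPs and 1 lower at that p, and 0 were called at either stage (limma). The part of these shifts in the members' values was not tested. In the same order of stages, markers of astrocytes and Bergmann glia had 25 to 30, 29 to 31 and 19 to 29, and those of the oligodendrocyte lineage 34 to 39, 28 to 41 and 34 to 36. Markers of Purkinje cells and interneurons had 11 to 14, 9 to 14 and 12 to 15, and those of microglia and macrophages 2 to 4, 3 to 7 and 3 to 5. These are binding positions and not transcript levels. The preparations are bulk, so that a different share of a cell type and a different binding per cell cannot be told apart.

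Cadherins are transmembrane proteins that hold cells together through calcium-dependent contacts of their extracellular repeats. Classical cadherins of type I and type II bind catenins, which connect them to actin, and different combinations of type II cadherins mark groups of neurons that sort together. The delta protocadherins adhere more weakly and act in axon growth, cell migration and synapse formation. In the cerebellum, granule progenitors divide at the outer surface and then migrate inward past other cells, a movement in which adhesion molecules such as N-cadherin take part. NFIA and NFIB are transcription factors that bind DNA as dimers and act in granule neuron and glial development.

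The promoters with the most regular summits belonged to 3 protocadherins: Pcdh9, a delta1 protocadherin, and Pcdh10 and Pcdh17, delta2 protocadherins of synapses and growing axons. They are shown because a top summit stood in their RefSeq window (GRCm38.p6, 250 bases before to 50 after a gene start) in 16, 14 and 14 of the 18 libraries. Capitals mark the NFI half-site, TTGGC or its reverse complement GCCAA.
Pcdh9 (chr14:93890630-93890929, minus strand): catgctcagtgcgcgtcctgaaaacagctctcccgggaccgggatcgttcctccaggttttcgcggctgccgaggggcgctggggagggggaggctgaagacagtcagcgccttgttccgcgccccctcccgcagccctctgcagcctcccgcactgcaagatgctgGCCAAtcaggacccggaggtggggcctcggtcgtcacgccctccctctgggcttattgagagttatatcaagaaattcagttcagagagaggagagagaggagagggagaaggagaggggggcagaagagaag
Pcdh10 (chr3:45378148-45378447, plus strand): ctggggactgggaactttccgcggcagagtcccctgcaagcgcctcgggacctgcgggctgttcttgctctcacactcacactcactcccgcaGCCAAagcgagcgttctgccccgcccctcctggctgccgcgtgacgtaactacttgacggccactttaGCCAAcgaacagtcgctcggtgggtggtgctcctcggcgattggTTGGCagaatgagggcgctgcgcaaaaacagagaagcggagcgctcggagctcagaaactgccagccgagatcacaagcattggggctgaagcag
Pcdh17 (chr14:84443313-84443612, plus strand): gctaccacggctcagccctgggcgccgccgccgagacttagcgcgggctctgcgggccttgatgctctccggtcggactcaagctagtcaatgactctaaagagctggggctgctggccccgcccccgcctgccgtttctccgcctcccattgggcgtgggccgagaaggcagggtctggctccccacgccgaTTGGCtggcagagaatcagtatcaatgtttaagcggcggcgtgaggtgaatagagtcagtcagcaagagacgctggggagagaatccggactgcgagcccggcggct

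In the Pcdh9 window, 5 of 6 GNP libraries, 5 of 6 hyperplasia libraries and 6 of 6 tumor libraries had a top summit. In the Pcdh10 window there were 5, 5 and 4 such libraries, and in the Pcdh17 window 4, 5 and 5. Top summits thus stood in these windows at every stage. They lay mostly upstream of the start, at medians of −177.5 bp for Pcdh9, −108 bp for Pcdh10 and −139.5 bp for Pcdh17. The half-sites are centred at −81 bp in Pcdh9, at −155, −87 and −43 bp in Pcdh10 and at −55 bp in Pcdh17. The best summits of different libraries were not stacked on these letters. In Pcdh9 and Pcdh17 most of them lay further upstream than the half-site, in Pcdh9 mainly from −245 to −155 bp. In Pcdh10 they were spread from −212 to −13 bp. A second Pcdh9 window starting 10 bp away had a top summit in 15 libraries. A wider stretch over both Pcdh9 windows (chr14:93890556-93891064) had a top summit in all 18 libraries. Both Pcdh9 windows lie inside the gene span used for counting (chr14:93013700-93892834) and not at its end. Of the 106 top summits of Pcdh9, 0 stood within 1 kb of an end of that span. The RefSeq table held 24 windows for 21 of the 33 members. Of these, 4 had a top summit in at least 12 libraries, against 13% of all protein-coding promoter windows. Both overlapping Pcdh9 windows are among the 4, and such windows of 1 gene are counted separately in the shares given here. No top summit in any library was found in 7 of the 24, against 56.2% of all windows. A half-site, on either strand, stood in 16 of the 24 windows and in 48% of the 20085 protein-coding windows. The full palindrome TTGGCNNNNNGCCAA stood in 0 of the 24 and in 0.0349% of all. It reads the same on both strands and holds both half-sites. A match of letters is no proof of a bound site, and its absence says only that these letters are not in the window.

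**Figure D1:**
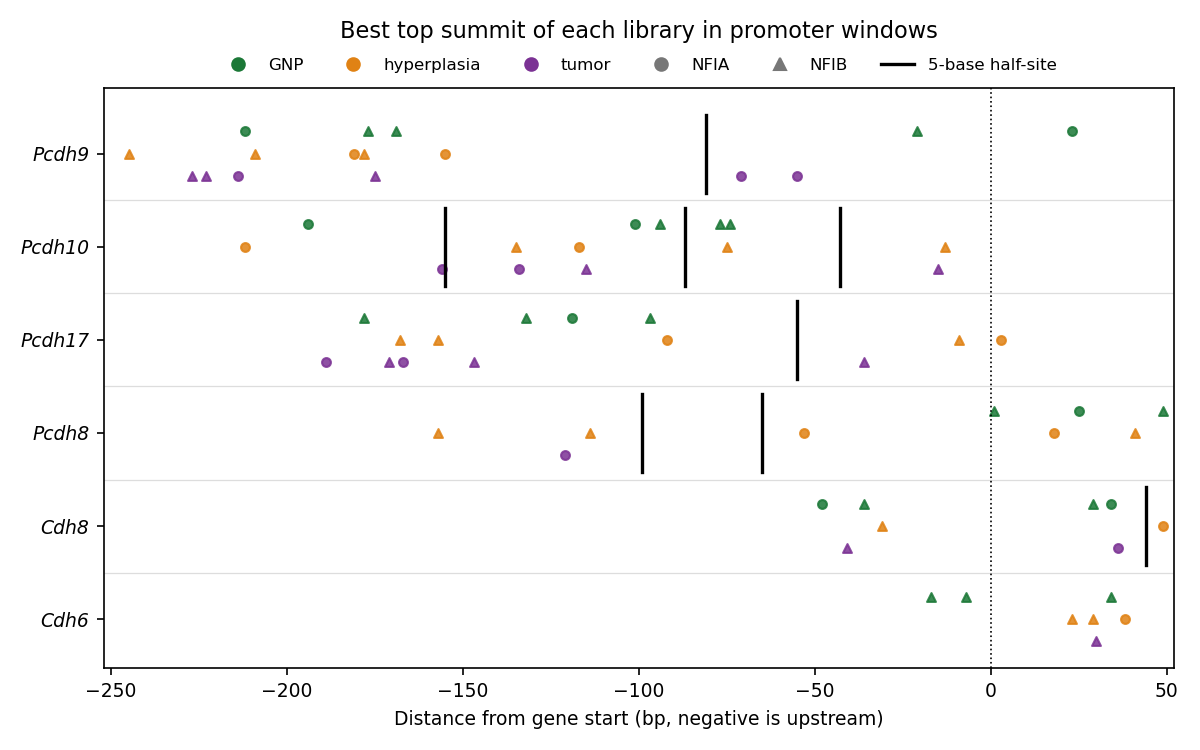
Position of the best top summit of each library (points; circles NFIA, triangles NFIB) relative to the gene start in bp, for the 6 members with the most libraries in a promoter window. Vertical bars are half-site centres. For Pcdh9, Pcdh10 and Pcdh17 points of all 3 stages lie mainly upstream of the start.

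Pcdh8, a delta2 protocadherin that takes part in removing synaptic adhesion molecules, had a promoter top summit in 3 GNP, 5 hyperplasia and 1 tumor library of 6 each. Cdh8, a type II cadherin, had 4, 2 and 2, and Cdh6, another type II cadherin, had 3, 3 and 1. These promoters were therefore occupied in fewer libraries than the 3 protocadherin starts printed above, and no test was made of their stages.

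The members together took 0.33 to 0.483% of the top summits of a library. Their summed number was 263, 228 and 238 in the GNP preparations, 230, 227 and 223 in hyperplasia and 281, 247 and 234 in tumors. GNP preparations overlap with both later stages, and every tumor value lies above every hyperplasia value. Of the 2171 summits in all preparations, 458 (21.1%) were at Cdh13 and 359 (16.5%) at Cdh4, so that a pair of genes held 37.6%. The other tested members ranged from a mean of 2 at Cdh3 and Cdh15 to 13.8 at Cdh5. The 9 members below the limit were Cdh1, Cdh9, Cdh10, Cdh16, Cdh19, Cdh24, Pcdh12, Pcdh18 and Pcdh20, each with 0 to 3 top summits in every preparation. Cdh1, which encodes the E-cadherin of epithelia, averaged 1.00 in GNPs, 0.667 in hyperplasia and 1.00 in tumors. At the 33 members, 67.6% of the summits lay inside a gene further than 1 kb from its ends, 7.5% within 1 kb of an end and 24.9% between genes. At all other genes these shares were 46.3, 27.2 and 26.5%. Of the 1468 member summits inside a gene, 444 were at Cdh13 and 349 at Cdh4. Members are also long, with 17 of 33 at 100 kb or more, against 2313 of 20665 gene spans. The part of length in these shares was not tested.

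Per length, only a few of the long members were densely bound. Among 2313 genes of 100 kb or more, the median was 2.19 top summits inside the span per 100 kb and preparation, and 5 of the 17 members of that length lay above it. Cdh4, the gene for R-cadherin, had 8.63 per 100 kb (percentile 94.7). Cdh22, a type II cadherin of brain, had 6.66 (89.4), and Cdh13 had 4.16 (74.8). Cdh20, also of type II, had 2.84 (60.6), and Cdh23, which encodes a part of the tip links of hair cells, had 2.57 (56.6). At the other end, Cdh18 had 0.634, Cdh12 0.280, Cdh10 0.225 and Pcdh15, the tip-link partner of Cdh23, 0.186 per 100 kb, and Cdh9 had 0. The type II cadherins thus spanned nearly the whole range of long genes. Cdh13 is 1184913 bp long and Cdh4 456955 bp. Pooled over length, the members had 1.85 per 100 kb and all genes 3.37.

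**Figure D2:**
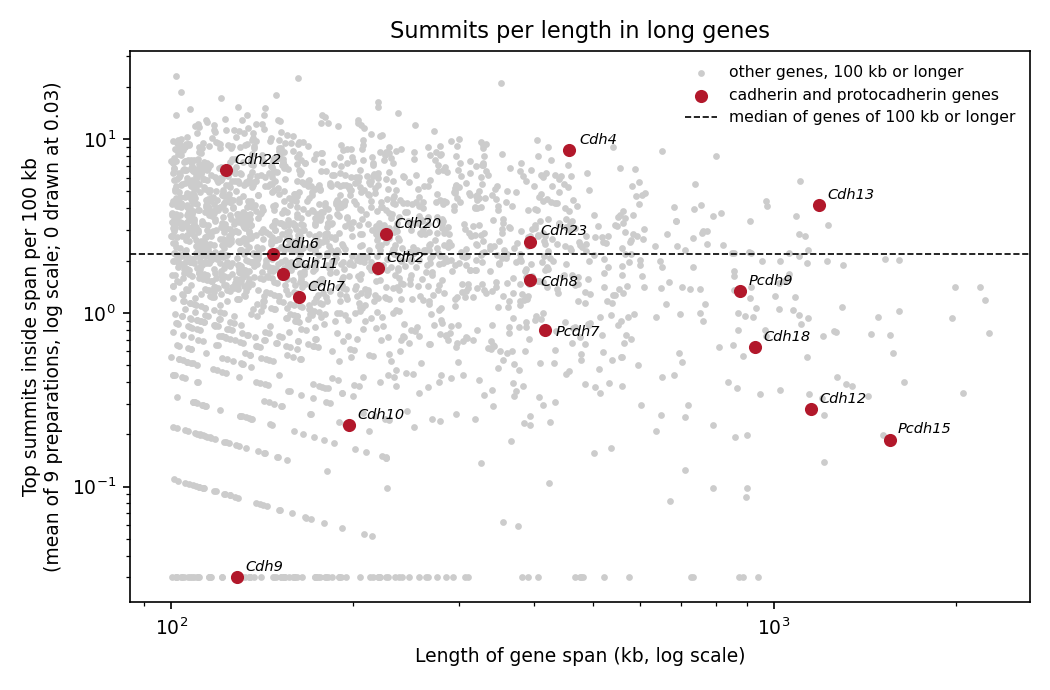
Top summits inside the gene span per 100 kb (mean of 9 preparations, log axis) against length of the span in kb (log axis) for genes of 100 kb or longer. Red points are members, grey points other genes and the dashed line their median of 2.19. Cdh4, Cdh22 and Cdh13 stand above the median and Pcdh15, Cdh12 and Cdh10 far below it.

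Between stages, no member passed the test in any of the 3 comparisons. The test was limma on log2(summits + 0.5) over 8585 genes with Benjamini-Hochberg adjustment, called at 0.05. Few genes of any kind were called, namely 0.14% between hyperplasia and GNPs, 0.198% between tumors and GNPs and 0.116% between tumors and hyperplasia. Of the 24 tested members, 5, 4 and 4 had an unadjusted p under 0.05, which is 20.8, 16.7 and 16.7%, against 13.5, 14.9 and 11.4% of all genes tested. The lowest adjusted p-values of members were 0.0964, 0.153 and 0.279. All 3 hyperplasia preparations lay above the 3 of GNP in 3 members and below them in 3 (background 5.26 and 5.84%). All 3 tumor preparations lay above GNP in 4 members and below in 1 (background 6.17 and 5.89%), and above hyperplasia in 3 and below in 0 (background 4.29 and 3.7%). The median log2 fold change of members was −0.06, 0.00 and 0.08, against 0 for all genes in each comparison. The comparisons share preparations and are not independent of each other. With all autosomal summits, scaled to equal totals, 5 of 28 tested members and 314 of 7335 tested genes were called for tumor against GNP by limma. The 5 members were Pcdh15 with a log2 fold change of 1.77, Cdh12 with 1.66, Pcdh7 with 0.88, Cdh8 with 0.71 and Cdh26 with −0.77. The median of all genes was −0.15 in that setting. With the top summits Cdh12 stood at −0.16 and Cdh26 at −0.08. Lists of unequal length enter that alternative whole. The title dates of the 3 tumor preparations differ from those of the other stages, so that date and tumor stage cannot be told apart. Mouse age also differs between all stages, so that age and stage cannot be told apart in any of the 3 comparisons. GNP and hyperplasia share 2 title dates, and values within each date stand beside those results, the earlier date first. The later date holds only the third preparation of each of these stages. Its values therefore compare single preparations.

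**Figure D3:**
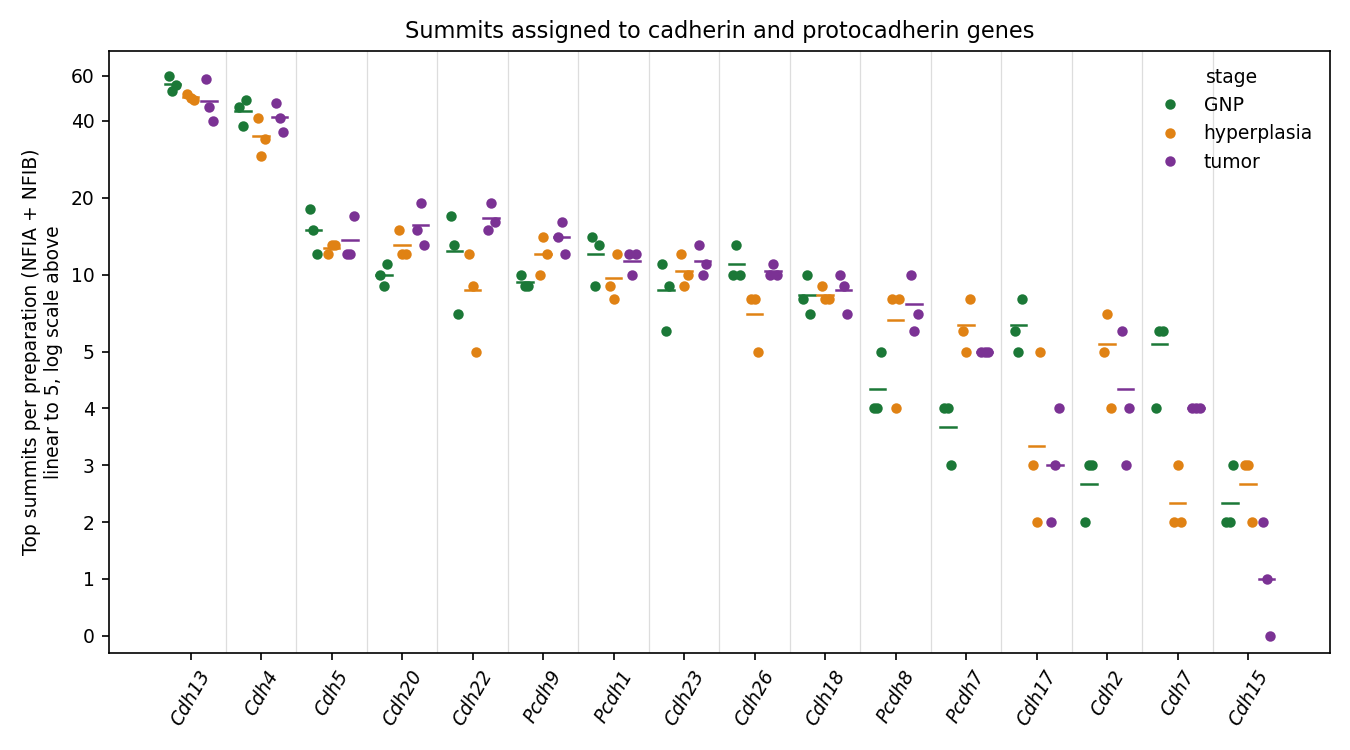
Top summits per preparation (NFIA and NFIB added; axis linear to 5 and logarithmic above) for the 16 members with the highest means or an unadjusted p under 0.05. Points are the 3 preparations of a stage and short lines their mean. Cdh13 and Cdh4 stand apart with 29 to 60 summits, and Cdh7 is lowest in hyperplasia.

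Among the classical type I cadherins, the 5 genes summed to 51.7 ± 5.13 top summits in GNPs, 45.3 ± 4.93 in hyperplasia and 49.7 ± 8.62 in tumors (SD, n = 3 each). Most of them were at Cdh4 (chr2:179442423-179899377), with 45, 38 and 48 in GNP preparations, 41, 29 and 34 in hyperplasia and 47, 41 and 36 in tumors. The 3 stages of Cdh4 overlap. Cdh2 (chr18:16588877-16809246) encodes N-cadherin, the main classical cadherin of neural tissue. It had 2, 3 and 3 top summits in GNPs, 5, 7 and 4 in hyperplasia and 6, 3 and 4 in tumors. All hyperplasia values of Cdh2 exceed all GNP values, and the tumor values overlap with both. The log2 fold change for hyperplasia minus GNP was 0.87 (SE 0.29, adjusted p = 0.253, limma), and within the title dates it was 1.12 and 0.36. In the NFIB libraries alone it was 0.44. Cdh15, which encodes the M-cadherin of muscle, had 2, 2 and 3 top summits in GNPs, 3, 3 and 2 in hyperplasia and 2, 1 and 0 in tumors. The tumor values of Cdh15 touch those of both other stages at 2, and the log2 fold change for tumor minus hyperplasia was −1.34 (SE 0.54, adjusted p = 0.411, limma). It was −0.69 without the third tumor preparation, the one at 0, −0.69 with a pseudocount of 2, −0.41 with summits of a score of at least 5 and −0.38 with all autosomal summits. Cdh3, the P-cadherin gene, had 2 in every preparation, all of them outside its span.

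The 13 type II cadherins summed to 70.7 ± 10.6 top summits in GNPs, 65.7 ± 5.03 in hyperplasia and 80 ± 2 in tumors (SD, n = 3 each). Tumors lay wholly above hyperplasia and overlap with GNPs. Cdh20 (chr1:104768340-104995481) had 10, 9 and 11 in GNPs, 15, 12 and 12 in hyperplasia and 15, 19 and 13 in tumors. Both later stages of Cdh20 lie wholly above GNPs. For tumor minus GNP its log2 fold change was 0.61 (SE 0.16, adjusted p = 0.153, limma). This value was 0.08 with summits of a score of at least 5, 0.22 in the NFIA libraries alone, 0.94 in the NFIB libraries alone and 1.23 with summits inside the span alone. Cdh22 (chr2:165111501-165234924) had 17, 13 and 7 in GNPs, 12, 9 and 5 in hyperplasia and 15, 19 and 16 in tumors. Its tumor values exceed all of hyperplasia and overlap with GNPs, with a log2 fold change for tumor minus hyperplasia of 0.98 (SE 0.38, adjusted p = 0.411, limma). With all autosomal summits in place of the top 30000 this value was −0.14, with a score of at least 5 it was 0.25 and with the 15000 highest summits 2.0. Without the third hyperplasia preparation it was 0.65.

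Cdh7 (chr1:109982237-110145272), a type II cadherin of neurons, came closest to a call. It had 4, 6 and 6 top summits in GNPs, 2, 3 and 2 in hyperplasia and 4, 4 and 4 in tumors. Hyperplasia thus lay below every preparation of both other stages. The log2 fold change was −1.04 for hyperplasia minus GNP (SE 0.20, adjusted p = 0.0964, limma), and −0.87 and −1.38 within the title dates. Over its alternatives this value ranged from −1.83, with summits inside the span alone, to −0.12, with all autosomal summits. For tumor minus hyperplasia it was 0.69 (SE 0.20, adjusted p = 0.279, limma), and −0.23 when summits with a score of at least 5 were used, where the median of all genes was −0.38. The hyperplasia preparations enter both values.

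Cdh5 (chr8:104101613-104144504) encodes VE-cadherin, the adhesion molecule of blood vessel walls. It had 18, 15 and 12 top summits in GNPs, 12, 13 and 13 in hyperplasia and 12, 12 and 17 in tumors, and the stages overlap. Only 16.9% of its summits lay within its span, the rest in the surrounding 100 kb. The 7 marker genes of vascular and meningeal cells had 14 to 21 in GNP preparations, 13 to 17 in hyperplasia and 21 to 23 in tumors, with none at 0 in all preparations; their part in the Cdh5 values was not tested. Cdh18, a type II cadherin of the nervous system, had 8, 10 and 7 in GNPs, 9, 8 and 8 in hyperplasia and 10, 9 and 7 in tumors, with full overlap. Cdh6, Cdh8, Cdh11 and Cdh12 had stage means between 2.33 and 7.33, and none of them had an unadjusted p under 0.05 in any comparison.

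Among the other cadherins, Cdh13 (chr8:118140017-119324929) encodes T-cadherin, which is held in the membrane by a lipid anchor and lacks the part that binds catenins. It had 60, 52 and 55 top summits in GNPs, 51, 49 and 48 in hyperplasia and 58, 45 and 40 in tumors. Hyperplasia lay wholly below GNPs by a small margin, with an unadjusted p above 0.05, and tumors overlap with both. Cdh26 (chr2:178430515-178487366), a cadherin of epithelia, had 10, 13 and 10 in GNPs, 8, 8 and 5 in hyperplasia and 10, 11 and 10 in tumors. Hyperplasia lay below all other preparations of Cdh26. Its log2 fold change was −0.64 for hyperplasia minus GNP (SE 0.19, adjusted p = 0.218, limma), with −0.49 and −0.93 within the title dates, and 0.56 for tumor minus hyperplasia (SE 0.19, adjusted p = 0.349, limma). The first of these was −0.0035 with a distance limit of 500000 bp. The second was −0.41 with all autosomal summits, 0.08 with the 500000 bp limit and 0.35 without the third hyperplasia preparation. Only 11.8% of the summits of Cdh26 lay within its span.

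Cdh17, which encodes the liver-intestine cadherin, had 6, 5 and 8 top summits in GNPs, 3, 2 and 5 in hyperplasia and 2, 3 and 4 in tumors. Tumors lay wholly below GNPs, while hyperplasia touched GNPs at 5. The log2 fold change was −0.98 for tumor minus GNP (SE 0.34, adjusted p = 0.243, limma). For hyperplasia minus GNP it was −0.89 (SE 0.34, adjusted p = 0.321, limma), and −1.02 and −0.63 within the title dates. With all autosomal summits these values of Cdh17 were −0.42 and −0.22. Cdh23 had 11, 6 and 9 in GNPs, 12, 9 and 10 in hyperplasia and 13, 10 and 11 in tumors, which overlap. Cdh16, the kidney-specific cadherin, had 0 to 3 in every preparation.

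The 3 delta1 protocadherins summed to 25 ± 3 top summits in GNPs, 28 ± 3.61 in hyperplasia and 30.3 ± 1.15 in tumors (SD, n = 3 each), and tumors lay wholly above GNPs. Pcdh9 (chr14:93013700-93892834) had 10, 9 and 9 in GNPs, 10, 14 and 12 in hyperplasia and 14, 16 and 12 in tumors. Its tumor values exceed all GNP values, and hyperplasia overlaps with both. The log2 fold change for tumor minus GNP was 0.55 (SE 0.15, adjusted p = 0.159, limma), and −0.30 with summits of a score of at least 5, where the median of all genes was −0.46. All summits of Pcdh9 lay inside its span. Pcdh7 (chr5:57716145-58133236), expressed in nervous tissue, had 4, 4 and 3 in GNPs, 6, 5 and 8 in hyperplasia and 5, 5 and 5 in tumors. Both later stages lay above GNPs in every preparation. For hyperplasia minus GNP the log2 fold change was 0.70 (SE 0.18, adjusted p = 0.165, limma), with 0.41 and 1.28 within the title dates. It was 0.09 with summits of a score of at least 5, 0.13 with a limit of 500000 bp and 0.30 with all autosomal summits. Pcdh1 (chr18:38185914-38212048), active in axons and epithelia, had 14, 9 and 13 in GNPs, 9, 8 and 12 in hyperplasia and 12, 10 and 12 in tumors, which overlap.

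The 4 delta2 protocadherins summed to 10.7 ± 0.577 top summits in GNPs, 11.7 ± 2.52 in hyperplasia and 15 ± 5 in tumors (SD, n = 3 each). Pcdh8 (chr14:79766772-79771312) had 4, 4 and 5 in GNPs, 8, 4 and 8 in hyperplasia and 10, 6 and 7 in tumors. Every tumor value of Pcdh8 exceeds every GNP value. The log2 fold change of Pcdh8 for tumor minus GNP was 0.73 (SE 0.29, adjusted p = 0.298, limma), and it was 0 with the 15000 highest summits and −0.11 with summits of a score of at least 5. Pcdh10 and Pcdh17 had 1 to 4 in every preparation. Of these summits, 18 of 21 at Pcdh10 and 16 of 27 at Pcdh17 lay within 1 kb of a gene end. Pcdh15, Pcdh12 and Pcdh20 summed to 3 ± 1.73 in GNPs, 4.33 ± 2.08 in hyperplasia and 5.33 ± 1.53 in tumors (SD, n = 3 each).

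**Figure D4:**
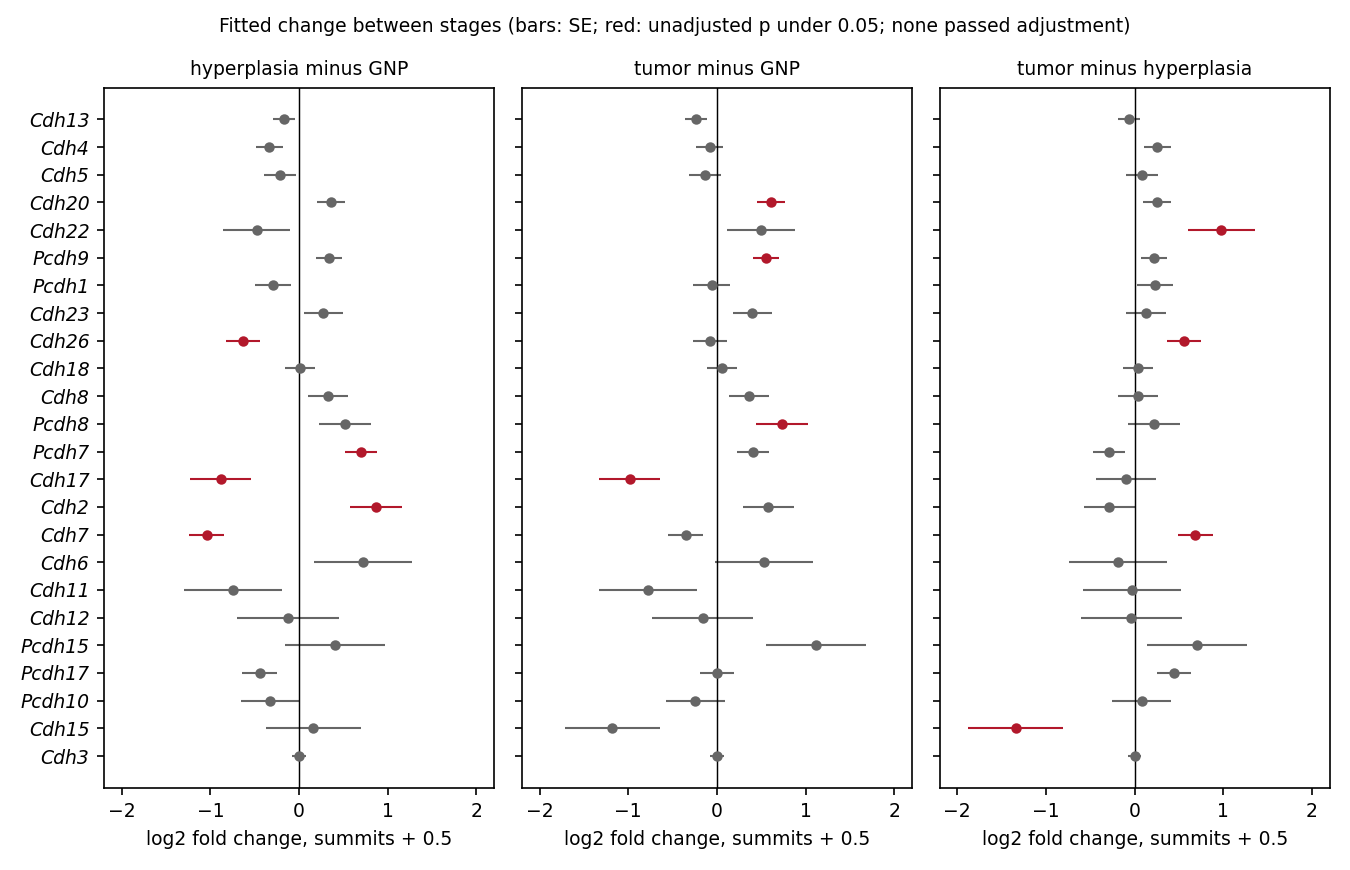
Log2 fold changes of the 24 tested members with their SE, one panel per comparison (first-named stage minus second). Red marks an unadjusted p under 0.05, and no member passed after adjustment. Cdh7 lies at −1.04 in the left panel and Cdh20 at 0.61 in the middle one.

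A few binding regions at members had a top summit in nearly all libraries of one stage and nearly none of another. Top summits of all libraries were widened by 100 bp and merged, which gave 41995 regions with a summit of at least 3 libraries, 177 of them nearest to 30 members. A region counted as gained when at least 5 of 6 libraries of one stage and at most 1 of 6 of the other had a top summit there, and as lost in the reverse case. Of the 177, 5 were gained and 4 lost for tumor against GNP (background 2.28 and 2.53%). For hyperplasia against GNP there were 2 and 4 (background 2.15 and 2.77%), and for tumor against hyperplasia 5 and 1 (background 1.21 and 1.08%). No test was made of these counts, and they come from the same summits as the gene totals. When 6 libraries against none were required, 2 gained and 0 lost regions were left for tumor against GNP (background 0.407 and 0.364%). The other comparisons kept 0 (background 0.371 and 0.462% for hyperplasia against GNP, 0.105 and 0.0643% for tumor against hyperplasia). Member regions with a top summit in all 18 libraries numbered 19, and among all regions their share was 14.6%.

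A top summit in every tumor library and in no GNP library was found at 2 member regions, 1 of them 17632 bp from Pcdh8 (chr14:79788645-79789244). It had a top summit in 0 of 6 GNP, 4 of 6 hyperplasia and 6 of 6 tumor libraries. No GNP library listed any summit there, in lists of 55925 to 159474 summits, while tumor lists reached 385466 summits. Its best summits ranked 10349 to 26946 in tumor libraries. The other, inside Cdh20 (chr1:104916555-104916991), had one in 0 GNP libraries, 1 of hyperplasia and 6 of tumors. It was listed in 3 GNP libraries at ranks of 37690 to 125576, while its tumor ranks were 8181 to 26950. A region inside Cdh4 (chr2:179583741-179584092) had one in 1 GNP library, 4 of hyperplasia and 6 of tumors, and its median rank was 5038.5 in tumors and 42608.5 in the 4 GNP libraries that listed it. The contrast in top summits between tumors and GNPs is what selected these regions.

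The lost regions named here lay at Pcdh1, Cdh13, Cdh4 and Cdh15. The Pcdh1 region (chr18:38144798-38145100), 40965 bp from the gene, had a top summit in 6 GNP libraries, 6 of hyperplasia and 1 of tumors. At Cdh13, chr8:119281681-119282129 had one in 5 GNP libraries, 0 of hyperplasia and 0 of tumors, while a neighbouring region (chr8:119284842-119285539) had one in all 18. At Cdh4, chr2:179606219-179606788 had one in 6 GNP libraries, 3 of hyperplasia and 1 of tumors, and its neighbour chr2:179605180-179605579 had one in all 18. The same gene Cdh4 therefore held a region gained and a region lost in tumors, beside totals that overlap. A region in Cdh15 (chr8:122853367-122853805) had a top summit in 5 GNP libraries, 0 of hyperplasia and 0 of tumors. Another in Cdh4 (chr2:179787328-179788147) had one in 5 GNP libraries, 1 of hyperplasia and 2 of tumors.

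The regions gained in hyperplasia against GNP lay near Cdh5 and in Pcdh9. The region 2206 bp from Cdh5 (chr8:104146539-104146881) had a top summit in 0 GNP libraries, 5 of hyperplasia and 2 of tumors. The region inside Pcdh9 (chr14:93067266-93067963) had one in 1 GNP library, 5 of hyperplasia and 3 of tumors. For tumor against hyperplasia, a region 14171 bp from Cdh22 (chr2:165248929-165249262) had a top summit in 3 GNP libraries, 0 of hyperplasia and 5 of tumors. A Pcdh1 region 8637 bp from the gene (chr18:38176928-38177626) had one in 3 GNP libraries, 1 of hyperplasia and 6 of tumors. For each comparison here, the contrast between its stages is what selected the regions. GNPs lay between the other stages in the Cdh22 and Pcdh1 regions. The Cdh20 region described above was also gained for tumor against hyperplasia, with 0 GNP libraries, 1 of hyperplasia and 6 of tumors.

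The steadiest strong regions ranked near the top of every list. The region inside Cdh23 (chr10:60595198-60595625) had its worst rank at 1550 of 30000, and the best summits of the 18 libraries lay within 209 bp. The region inside Cdh4 (chr2:179537414-179537831) had a worst rank of 2702, and one 26500 bp from Cdh26 (chr2:178513651-178514081) of 3641. Ranks from lists of different length show position within a list and not a change in binding.

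**Figure D5:**
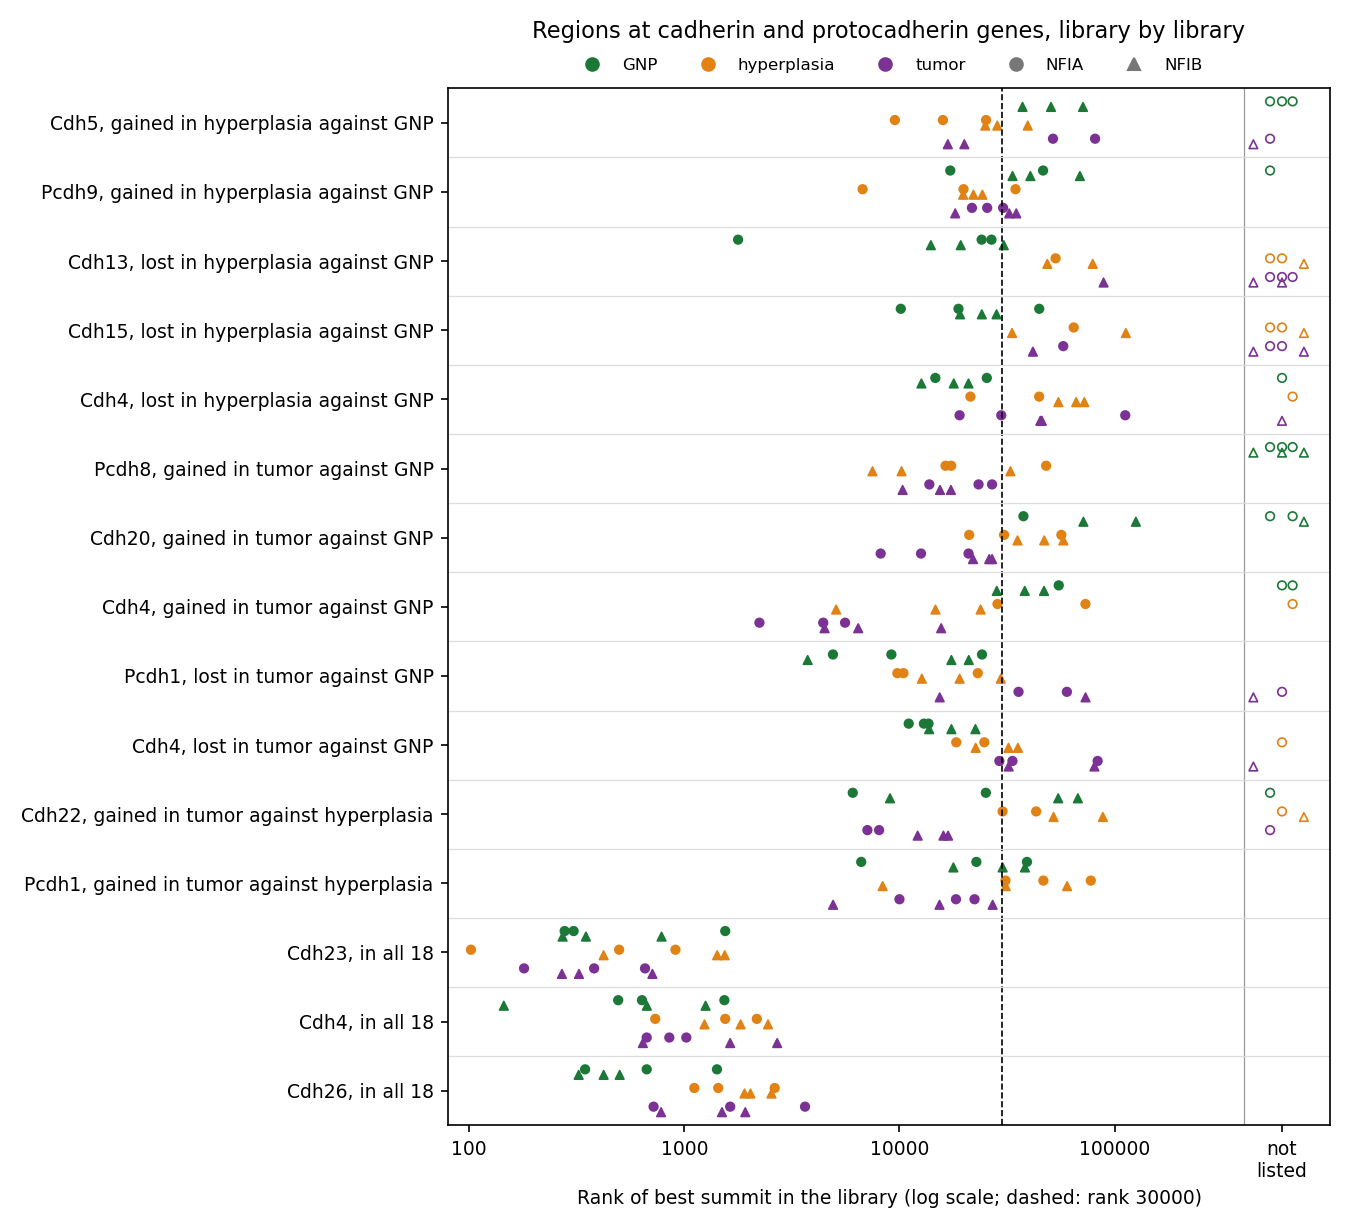
Rank of the best summit (log axis, 1 is the highest score) in each library for the named regions, with GNP, hyperplasia and tumor in separate rows, circles for NFIA and triangles for NFIB. Open symbols at the right are libraries with no listed summit, and the dashed line is rank 30000. The Pcdh8 region has all 6 GNP libraries at the right, and the Cdh23 region has no rank beyond 1550 in any of the 18.

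No member passed the test between NFIA and NFIB libraries. In 6 of the 18 libraries the deposited name carries the other target than the title, and the title was used. No gene was called between the targets (limma over 18 libraries with stage as a term, 0 of 8585, 493 at an unadjusted p under 0.05). In the 12 libraries whose deposited name and title agree, 6 of 8658 genes and 0 members were called. Cdh4 had 21.7 ± 3.57 top summits per NFIA library and 18.2 ± 4.12 per NFIB library (SD, 9 libraries each), and NFIA was higher in 7 of 9 preparations. Its log2 fold change was 0.26 (SE 0.12, adjusted p = 0.818, limma). Pcdh7 had 2 ± 0.707 per NFIA library and 3 ± 1 per NFIB library, and NFIA was lower in 7 of 9 preparations. Its log2 fold change was −0.49 (SE 0.15, adjusted p = 0.771, limma). The other tested members had an unadjusted p above 0.05. In the interaction of stage and target no member was called. Cdh20 had an adjusted p of 0.973 for hyperplasia minus GNP, and Pcdh17 had 0.973 for the same contrast and 0.729 for tumor minus GNP (limma), each with an unadjusted p under 0.05.

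No partner gene of the cadherins passed the test between stages. Of 10 catenins and linkers, 9 were tested and 0 were called, with 0, 3 and 2 at an unadjusted p under 0.05 in the 3 comparisons (hyperplasia with GNPs, tumors with GNPs, tumors with hyperplasia). Ctnnd2, the gene for the neuronal delta-catenin, had 12.7 ± 1.53 top summits in tumors and 18.3 ± 1.53 in GNPs (SD, n = 3 each), and its adjusted p for tumor minus GNP was 0.0937 by limma. The other 2 at an unadjusted p under 0.05 for tumor minus GNP went the other way. Ctnna2 had 28 ± 1 in tumors and 22.7 ± 3.06 in GNPs, and Ctnna3 had 13 ± 1.73 and 9 ± 2.65. Ctnnb1, the beta-catenin gene, had 6 ± 2.65 in tumors and 5.67 ± 0.577 in GNPs. Of 24 atypical and related cadherins, 14 were tested and 0 were called, with 3, 6 and 3 at an unadjusted p under 0.05. These are 21.4, 42.9 and 21.4%, against 13.5, 14.9 and 11.4% of all genes tested, and the catenins and linkers had 0, 33.3 and 22.2%. Clstn2, a calsyntenin of synapses, had 25.7 ± 2.08 in hyperplasia and 38 ± 3 in GNPs, and its adjusted p was 0.0856 by limma. For hyperplasia minus GNP all 3 related cadherins at an unadjusted p under 0.05 were lower. For tumor minus GNP 3 were higher and 3 lower, and for tumor minus hyperplasia all 3 were higher.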

How the data were processed

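Per the submitters' processing notes, Bowtie2, MACS2 and the mm10 build were used, without versions, on CUT&Tag reads of both proteins. The deposited lists hold 1 summit per peak of each library called separately, with the score in −log10 of the p- or q-value that the authors' peak caller gave. Which of these it is, and any control library, are not stated in the labels. The lowest score was 2. Read depth is unknown, and no counting interval was computed.

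In each library the 30000 best-scoring summits of chromosomes 1 to 19 were kept, with ties broken at random (in the second NFIA library of hyperplasia 20.4% of them had the score of the last one kept). Each was given to the nearest RefSeq gene span (GRCm38.p6) within 100 kb, and to the shortest span where several overlap. The stage test used limma 3.58.1 (R 4.3.3; trend, empirical Bayes), for genes averaging 2 or more top summits per preparation, on log2(summits + 0.5), stage as the only term, Benjamini-Hochberg adjustment over 8585 genes. NFIA and NFIB were compared per library, in genes averaging at least 1. This scale understates changes of genes with few summits. Python 3.11.15, numpy 2.4.6, pandas 2.3.3 and matplotlib 3.10.9 were used.

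On simulated data with 100 genes changed 2-fold and 100 changed 4-fold, the test recovered 3% and 43% of them for hyperplasia against GNP (8309 genes, 1 false call), 9% and 37% for tumor against GNP (8326 genes, 0 false calls) and 7% and 37% for tumor against hyperplasia (8294 genes, 4 false calls). Where the mean was 8 or more, 80, 82.4 and 92.9% of 4-fold changes were recovered. Most 2-fold changes were thus missed.

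The labels do not say whether preparations come from separate animals, so p-values reflect differences among preparations that may be technical. Members given per preparation are those with an unadjusted p under 0.05 in any stage comparison and the 10 with the highest mean. Regions named are at most 3 gained and 3 lost per comparison, by difference in libraries and then rank, and the 3 steadiest present in all 18; a neighbour in all 18 libraries beside 2 lost regions was chosen after its values were seen. The members and lists were chosen with earlier results of these data known. Coordinates are mm10, 1-based. RefSeq promoter windows come from GRCm38.p6. Alternatives were other numbers of summits, score minimums, distances, filters, pseudocounts, targets, blocks and left-out preparations.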

Additional observations from a re-analysis of the deposited data

How the results depend on the processing

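The number of members called stayed at 0 in every comparison of stages and of targets under the alternatives tried, with an exception. For tumor against GNP with all autosomal summits it was 5 of 28 tested members, beside 314 of 7335 tested genes. With the top summits, the number called was 0 whichever preparation was left out. The calls with all autosomal summits were not retested in this way. Replicate numbers did not pair the preparations (same-numbered correlations of at most 0.082), and with the replicate block 0 members were called in each comparison, as with title date as the block in GNP and hyperplasia alone. Region counts moved. Member regions numbered 711 with all summits and 90 with 15000, against 177 in the main setting. Brackets give the share over all regions in the same setting. For hyperplasia against GNP, gained regions numbered 12 (1.34%) and lost ones 8 (0.934%) with all summits. They were 0 (0.371%) and 0 (0.462%) when 6 libraries against none were required, and 6 (4.57%) and 9 (5.31%) when at least 4 were. Leaving out a preparation, where fewer libraries are asked for, gave 2 to 7 gained (3.17 to 5.29%) and 6 to 12 lost (3.90 to 5.25%). For tumor against GNP, gained regions numbered 3 with 15000 summits (2.57%), 9 with all (1.06%) and 2 with 6 against none (0.407%), and 5 to 9 without one preparation (3.37 to 5.31%). Lost ones numbered 7 with all (1.07%), 0 with 6 against none (0.364%), 7 with at least 4 (5.11%), and 6 to 12 without one preparation (4.03 to 5.12%). For tumor against hyperplasia, gained regions numbered 1 with 15000 (1.52%), 0 with 6 against none (0.105%), 8 with at least 4 (3.11%), and 7 to 10 without one preparation (2.09 to 3.62%). Lost ones numbered 5 with all (0.648%), 0 with 6 against none (0.0643%), 3 with at least 4 (2.94%), and 2 to 7 without one preparation (1.95 to 3.67%). Fold changes with an unadjusted limma p under 0.05 in the main setting were followed through the alternatives. The tumor minus GNP changes of the 5 members called with all autosomal summits were not among them. None of the followed changes passed the adjusted threshold in any setting, so keeping that side of it shows no stability. Of 315 alternative values 309 kept their direction, but some came close to 0, such as −0.0035 for Cdh26 and −0.12 for Cdh7 (hyperplasia minus GNP, 500000 bp limit and all summits) and 0.08 for Cdh20 (tumor minus GNP, score of at least 5). The 6 others were tumor minus GNP for Pcdh8 (0 with 15000 summits, −0.11 with a score of at least 5) and Pcdh9 (−0.30 with a score of at least 5), and tumor minus hyperplasia for Cdh7 (−0.23 with a score of at least 5), Cdh22 (−0.14 with all summits) and Cdh26 (−0.41 with all summits); the cause was not tested. A score of at least 5 moved the median of all genes to −0.46 for tumor minus GNP and −0.38 for tumor minus hyperplasia. Depth is unknown, and lists end at a score of 2, so a site not listed may still be bound.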
